A study of Mus musculus with 6 samples.

Results

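Frzb encodes frizzled-related protein, also called secreted frizzled-related protein 3, a Wnt antagonist that cells release. The gene was examined here in the aortas of 6 male apoE(-/-) mice on a C57BL/6 background. The array held 91188 distinct probes. The study's list of differential mRNAs pairs 1 of them, probe A_51_P286748, with the symbol Frzb. Any Frzb probe outside the list could not be named here and was not read. That list holds 357 probes, 284 of them with a symbol, and was selected for a difference between the same diet groups on the same arrays. The Frzb values below therefore describe the contrast that chose the gene, and no test is attached to them.

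All 6 mice lacked apolipoprotein E, the ligand through which remnant lipoproteins are cleared from blood, and such mice develop atherosclerosis. The normal diet group (n = 3) received chow and the high-fat diet group (n = 3) received 20% fat and 2.5% cholesterol, both for 8 weeks. RNA of 1 aorta was labelled with cyanine 3 for each array. The scanner output placed normal diet replicates 1 and 3 on slide 1. Normal diet replicate 2 and all 3 high-fat diet arrays were on slide 2, so slide 1 holds a single diet.

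Wnt proteins are secreted lipid-modified ligands that bind Frizzled receptors and LRP co-receptors and, in the canonical branch, stabilise beta-catenin. Frzb carries a cysteine-rich domain like that of the Frizzled receptors and binds Wnt proteins outside the cell, which keeps them from the receptor. The gene is best known from cartilage and skeletal development, and Wnt signalling in the vessel wall has been studied in smooth muscle and in vascular calcification.

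The probe is 60 bases long. Its first 30 bases are shown, positions 1 to 30 from the 5′ end, because every Frzb value in the text is the brightness of this oligonucleotide, and all letters are in lower case since no motif within it is singled out:

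A_51_P286748: gtgcaccagggtgttatttaacagaggtat

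The whole oligonucleotide has a GC content of 35.0%, against a median of 41.7% over all probes. A stop codon occurred in 2 of its 3 forward reading frames. No other probe of the array shared a run of 20 bases with it on either strand. The scanner output gives this probe no position, so its exon or untranslated region was not determined. In the RefSeq gene table for GRCm38.p6, 0 other protein-coding genes overlapped Frzb, and its nearest protein-coding neighbours are Dnajc10 and Nckap1. Overlap with genes of other types was not examined. Neither neighbour is in the list of differential mRNAs, and neither was analysed here.

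The Frzb signal was higher on every high-fat diet array than on every normal diet array. The background-subtracted processed signal, in scanner units with the scanner's own error estimate, was 58.0 ± 6.38, 31.4 ± 3.64 and 45.2 ± 5.47 in normal diet mice 1, 2 and 3. In the high-fat diet group it was 98.04 ± 10.0 for replicate 1, 246 ± 24.7 for replicate 2 and 156 ± 15.7 for replicate 3. The diet groups did not overlap, with high-fat diet replicate 2 the brightest array and normal diet replicate 2 the dimmest. All 3 high-fat diet arrays lay above all 3 normal diet arrays in 8.87% of the 64467 kept probes, the probes detected on every array of one diet or the other. Since the contrast chose Frzb, nothing is read from that share.

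The processed signal averaged 44.9 ± 13.3 (SD, n = 3) in the chow-fed mice and 167 ± 74.7 (SD, n = 3) in those fed the high-fat diet, a ratio of 3.71. The dimmest high-fat diet array was 1.69-fold brighter than the brightest normal diet array. Among the 9 pairings of a high-fat with a normal diet array, the ratio ran from 1.69 to 7.85. The spread among mice of the same diet was also wide. The brightest array exceeded the dimmest 2.51-fold within the high-fat diet group and 1.85-fold within the normal diet group. The scanner error of a single spot was 10.0% to 12.1% of its signal, an error that leaves out labelling, hybridisation and slide.

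**Figure D1:**
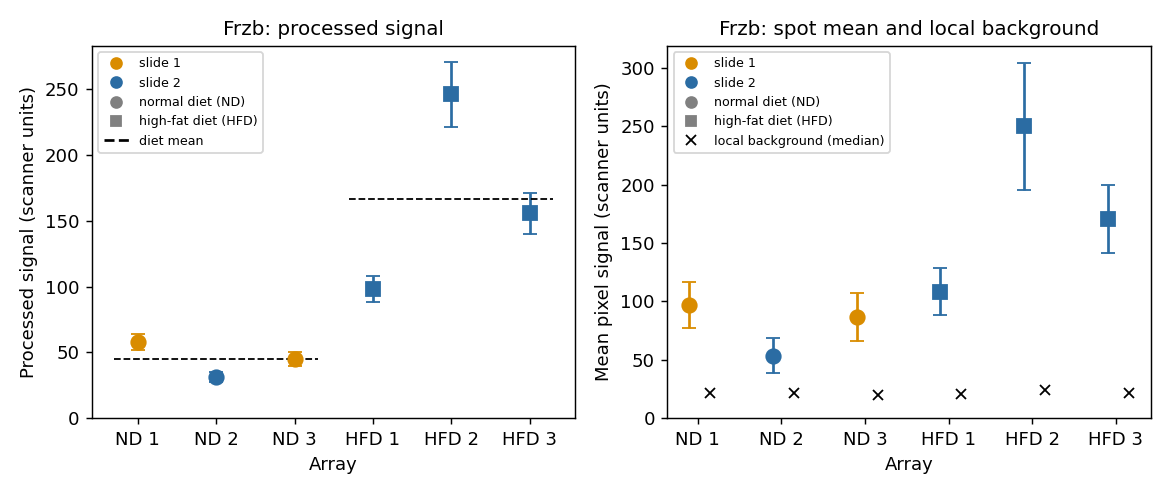
Left, processed Frzb signal in scanner units on each array, with bars for the scanner's error of the spot and dashed lines for the diet means of 44.9 and 167. Right, mean pixel signal of the same spots before background subtraction, with bars for the SD over pixels and crosses for the local background. The high-fat diet arrays are all above the normal diet arrays in both panels, but high-fat diet replicate 1 stands close to normal diet replicate 1 before subtraction (108 against 97.1).

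Frzb was detected on all 6 arrays, on 1 spot per array at the same place. The spot was called positive and well above background each time, and it was never saturated or marked as an outlier. The one quality flag was a population outlier in the local background around the spot on high-fat diet replicate 2. The spot mean was 4.41, 2.44 and 4.34 times its local background on normal diet replicates 1, 2 and 3. In the high-fat diet group the multiple was 5.16 for replicate 1, 10.4 for replicate 2 and 7.75 for replicate 3. The normal diet signal thus stood above background, but not far above it.

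The size of the Frzb difference changed with background subtraction. Before it, the mean pixel signal of the spot was 97.1, 53.7 and 86.8 in normal diet mice 1, 2 and 3. It was 108, 250 and 170 in high-fat diet mice 1, 2 and 3. The diet groups still did not overlap, and the ratio of the means was 2.23 across all arrays and 3.29 against normal diet replicate 2 alone. The processed signal lay below the spot mean by 39.1 and 41.5 on the slide 1 arrays, by 22.3 on normal diet replicate 2, and by 3.99 to 14.7 on the high-fat diet arrays. Negative control spots had a net signal of 31.6 and 32.2 on the slide 1 arrays, compared with 13.1 to 13.8 for slide 2. Detection reached 64.4% and 62.6% of probes for the slide 1 arrays and 72.4% to 76.0% for those of slide 2.

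On the log2 scale after quantile normalization, Frzb stood at 6.07, 4.92 and 5.70 in normal diet mice 1, 2 and 3. It stood at 6.70, 7.60 and 7.23 in high-fat diet mice 1, 2 and 3. The order from lowest to highest was normal diet replicates 2, 3 and 1, then high-fat diet replicates 1, 3 and 2. The gap of 0.63 between the groups was a little above the pooled within-diet SD of 0.52. It was smaller than the range within either group, 1.15 on the normal diet and 0.90 on the high-fat diet, so that the neighbouring arrays on each side of the gap are not separated by more than mice of the same diet can be.

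Mean log2 Frzb signal was 5.56 ± 0.59 (SD, n = 3) in the normal diet group and reached 7.18 ± 0.45 (SD, n = 3) in the high-fat diet group. The difference was 1.61 (SE 0.35, limma fit across all kept probes), or 3.06-fold higher on the high-fat diet. The study listed probes that passed both a 2-fold limit and an unadjusted p limit of 0.05. In this fit 2.13% of the kept probes passed both limits in the higher direction. The median difference over the kept probes was 0.01, their 95th percentile was 0.86 and their 99th percentile 1.57. A difference larger than that of Frzb was seen in 586 kept probes (0.909%). These shares place the size of the Frzb difference and lend it no support, because the gene was chosen by it. More cells of a type that makes Frzb and more Frzb RNA per cell cannot be told apart in RNA of whole aortas.

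The comparison within slide 2 gave a larger Frzb difference. Against normal diet replicate 2, the one normal diet array on the shared slide, the high-fat diet mean was 2.26 higher on the log2 scale, or 4.78-fold. A mean at least 2-fold higher within slide 2 was seen in 2.1% of the kept probes. With the slide as a block the Frzb difference was the same 2.26 (SE 0.36), and its spread came from within the slides. In that fit 1.64% of the kept probes passed both of the study's limits, set out above, in the higher direction. Against the mean of the slide 1 normal diet arrays the high-fat diet mean was 1.29 higher, so the within-slide value rests on a single mouse that was the lowest of the 6 for Frzb.

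All 3 high-fat diet arrays were at least 2-fold above normal diet replicate 2 for Frzb, as they were for 0.864% of the kept probes. Within slide 2 a larger difference than that of Frzb occurred in 155 kept probes (0.240%). Normal diet replicate 2 itself lay 0.96 below the mean of the slide 1 normal diet arrays. Across the kept probes that contrast between normal diet arrays ran from -0.96 at the 5th percentile to 1.36 at the 95th, and 4.94% of probes were lower than Frzb in it. Frzb thus stood near the low edge of the range by which that array departed from the others on its diet. Slide and animal cannot be told apart in that contrast.

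**Figure D2:**
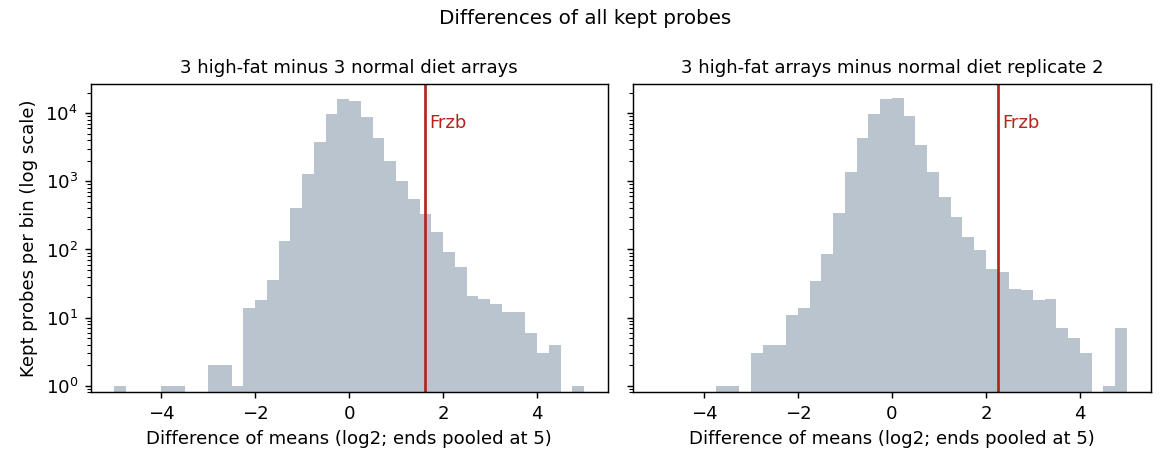
Number of kept probes (log scale) by difference on the log2 scale for all 6 arrays (left) and within slide 2 (right), in bins with the ends pooled. The red line marks Frzb, at 1.61 and 2.26, with 586 and 155 probes beyond it.

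Probes next to the Frzb spot did not share its difference. The 68 kept probes within 5 rows and columns had a median diet difference of 0.02, with a range from -0.71 to 0.91. Within slide 2 their median was -0.07, with a range from -0.99 to 0.68. Frzb lay outside both ranges. Over all kept probes, only 0.909% had a larger diet difference and 0.240% a larger one within slide 2. Because Frzb was chosen for its difference, nothing is read from its place outside these ranges.

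The direction of the Frzb difference was the same under each processing tried, while its size changed with background correction. The deposited log2 values gave 1.62 and scaling to the 75th percentile of each array gave 1.63. Values with no scaling between arrays gave 1.84. The lowest difference, 0.84 or 1.79-fold, came from normexp background correction with an offset of 50, and normexp with no offset gave 1.33. The diet groups did not overlap for Frzb under any of these 6 treatments of the intensities. With each array left out in turn, the difference ran from 1.29 without normal diet replicate 2 to 1.86 without normal diet replicate 1.

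**Figure D3:**
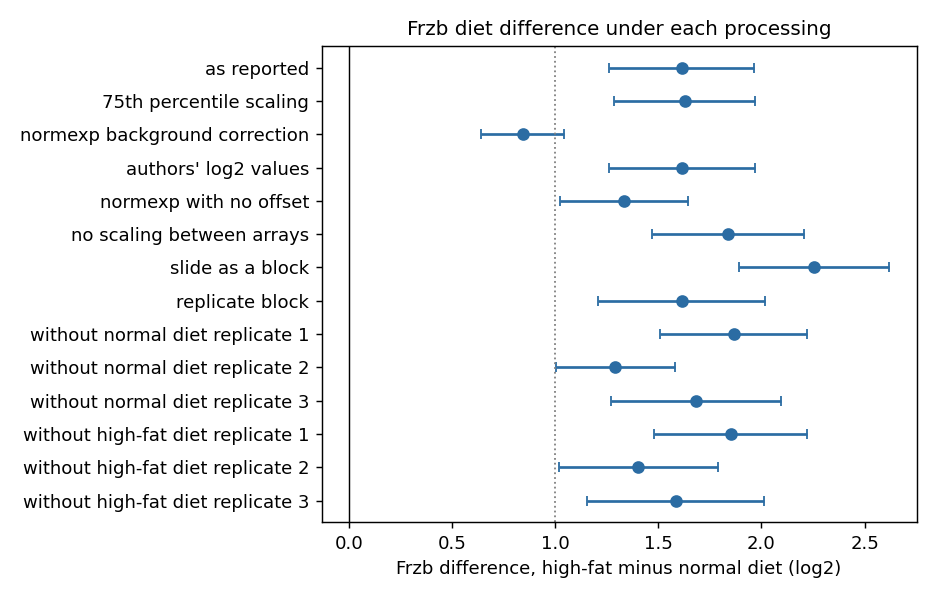
Frzb difference between diets (log2, points) with its standard error (bars) for each processing and with each array left out. The dotted line marks 2-fold, and the point for normexp with an offset of 50, at 0.84, is the one to its left.

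In all, 4 genes of a Wnt pathway list of 86, Frzb included, had a probe that could be named, 2 of 14 secreted antagonists, 1 of 19 ligands and 1 of 19 cytoplasmic or nuclear components. None of 22 receptors or co-receptors, 5 secreted agonists and 7 target genes had one, and their levels were not analysed here. The probe names came from the lists of differential transcripts, so all 4 were chosen on the diet contrast and their number says nothing about the pathway. Both limits were passed by 2.96% of the kept probes in either direction and by 0.83% in the lower direction.

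Dkk2, a secreted antagonist of the Dickkopf family that acts on the LRP co-receptors, was also higher on the high-fat diet. Its log2 signal was 2.49, 1.09 and 1.07 in normal diet mice 1, 2 and 3, with 0 of these arrays well above background. It was 4.07, 3.93 and 3.52 in high-fat diet mice 1, 2 and 3, with all 3 arrays detected. The mean high-fat diet signal was 1.89-fold above a stand-in for the normal diet arrays. As the stand-in, each normal diet array was given the dimmest signal of any probe well above its background, or the Dkk2 signal where that was brighter. An undetected signal can be brighter than this. Wnt8a, at 3.92 or more on each normal diet array, was detected on only 2 of the 3. The 1.89-fold value is therefore not a lower limit, and no size is read for Dkk2. Both named secreted antagonists, Frzb and Dkk2, were selected on the diet contrast, so nothing is read from their shared direction. Frzb is the one with a measured level in both groups.

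Wnt8a, a Wnt ligand, stood at 4.34, 4.79 and 3.92 in normal diet mice 1, 2 and 3, and at 5.38, 5.06 and 5.86 in high-fat diet mice 1, 2 and 3. It was detected on 2 of the 3 normal diet arrays and on all 3 high-fat diet arrays. The difference was 1.08 (SE 0.29) over all arrays and 0.64 within slide 2. In contrast to Frzb, the Wnt8a signal was higher on normal diet replicate 2 than on the other normal diet arrays, and its within-slide difference was the smaller one.

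Six3, a homeobox transcription factor that represses Wnt genes in the developing forebrain, went the other way. Its log2 signal was 4.24, 4.28 and 4.86 in normal diet mice 1, 2 and 3, and 3.16, 3.58 and 3.35 in high-fat diet mice 1, 2 and 3, where it was detected in 2 of 3. All 3 normal diet arrays lay above all 3 high-fat diet arrays in 10.4% of the kept probes. The difference was -1.099 (SE 0.23), and -0.92 within slide 2. Frzb was the only one of the 4 named genes detected on all 6 arrays.

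**Figure D4:**
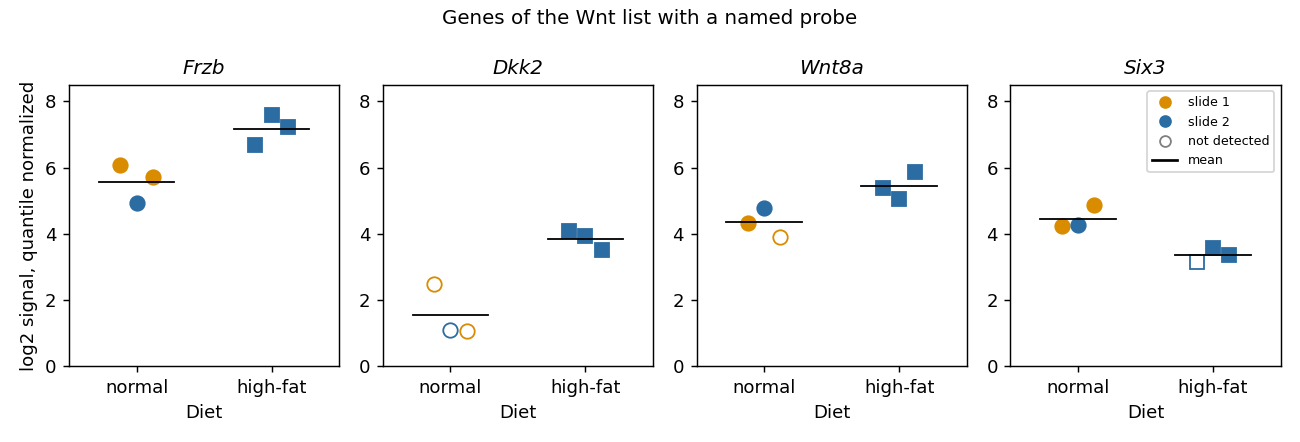
Quantile normalized log2 signal of Frzb, Dkk2, Wnt8a and Six3 on each array by diet, with bars for the diet means. Open symbols were not detected, as on all 3 normal diet arrays for Dkk2, while Frzb was detected on all 6. Levels of different probes are not comparable with each other.

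Among the 283 other named mRNA probes of the study's list, the one that followed Frzb most closely over the 6 arrays was Cx3cl1, the membrane-bound chemokine fractalkine. Pearson's r was 0.993 over the 6 arrays, and 0.992 once each diet's own mean had been taken out of both genes. Cx3cl1 stood at 8.36, 7.04 and 8.03 in normal diet mice 1, 2 and 3, and at 8.77, 9.60 and 9.32 in high-fat diet mice 1, 2 and 3. The arrays had the same order for both genes. The Cx3cl1 difference was 1.42 over all arrays and 2.19 within slide 2, both a little below those of Frzb.

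The next in likeness among these probes were Ly6g, a neutrophil surface antigen, at an r of 0.990, Srgap1, a GTPase-activating protein of Slit and Robo signalling, at 0.986, Dhx58, a cytoplasmic sensor of viral RNA, at 0.982, and 9030619P08Rik at 0.970. Their diet differences were 1.14, 1.13, 1.08 and 1.11, each smaller than that of Frzb. Srgap1 was detected on 2 of the 3 normal diet arrays, so its values rest in part on an array not above background. Ly6g and Dhx58 also had the Frzb order of the arrays throughout, while Srgap1 and 9030619P08Rik departed from it among the high-fat diet arrays. With the diet means removed, r with Frzb was 0.961 for Ly6g, 0.939 for Srgap1, 0.938 for Dhx58 and 0.867 for 9030619P08Rik.

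Among 344 kept lncRNA probes of the study's list, n415399 was the most like Frzb, with an r of 0.991 and a difference of 1.14. NR_076393.1, with an r of 0.970, had a difference of 1.099. Between them ranked a lncRNA named by its position alone, with an r of 0.987, which was not detected on any normal diet array. These correlations describe 6 points that share diet and slide, and the listed probes were selected for a diet difference. The median r with Frzb was 0.605 over the listed probes and 0.029 over all kept probes. Of 64466 kept probes, 67 (0.104%) had an r at or above that of 9030619P08Rik.

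**Figure D5:**
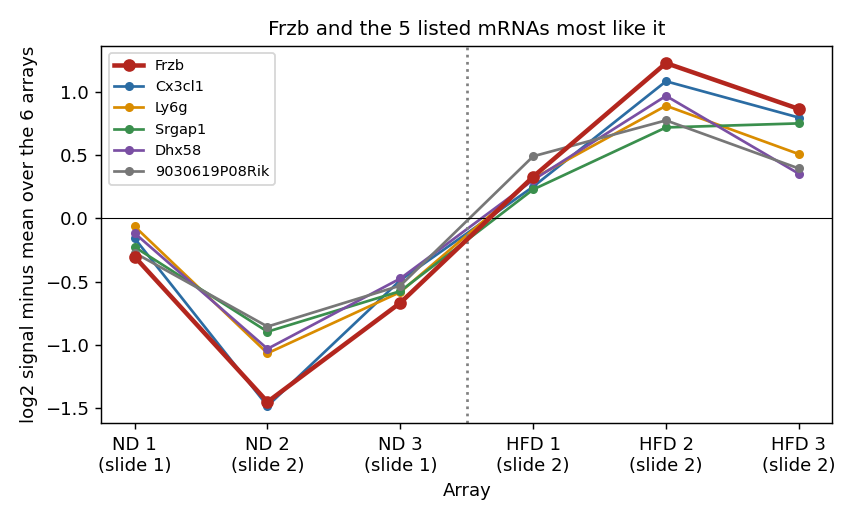
Log2 signal minus the mean over the 6 arrays for Frzb and the 5 listed mRNAs most like it. Each gene is lowest on normal diet replicate 2, and Cx3cl1 (r = 0.993) lies nearest to Frzb.

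Markers of cell types that an aorta sample can hold moved with Frzb in several cases. Of 58 markers, 9 had a named probe, each from the list selected on the diet contrast. The aorta label could not be checked, since none of 6 smooth muscle, 6 endothelial and 5 fibroblast markers, and none of 6 adipocyte markers, could be named.

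The macrophage markers Cd68, a lysosomal membrane protein, and Clec7a, the receptor dectin-1, were the 2 of 8 with a probe. Cd68 was at 5.09, 4.38 and 5.94 in normal diet mice 1, 2 and 3, and at 6.87, 7.87 and 6.997 in high-fat diet mice 1, 2 and 3, a difference of 2.11. Clec7a was at 5.31, 3.93 and 6.33 in normal diet mice 1, 2 and 3, and at 7.02, 7.87 and 7.05 in high-fat diet mice 1, 2 and 3, a difference of 2.12. Both were lowest on normal diet replicate 2 and highest on high-fat diet replicate 2, as Frzb was, with an r to Frzb of 0.94 and 0.92. Of the 283 other named mRNA probes of the study's list, 37 had an r to Frzb above 0.9. Within slide 2 the differences were 2.87 for Cd68 and 3.38 for Clec7a. Their part in the Frzb difference was not tested.

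Gdf5, a growth factor of joint cartilage and the 1 of 7 chondrocyte markers with a probe, was higher on the high-fat diet by 1.09, with an r to Frzb of 0.64. The 2 of 7 nerve or Schwann cell markers, S100b and Npy, had r values to Frzb of 0.83 and 0.89, and S100b was higher by 2.01. Icos, a T cell co-stimulator and the 1 of 6 lymphocyte markers, had an r to Frzb of 0.49, and unlike Frzb it was higher on normal diet replicate 2, at 3.49, than on normal diet replicates 1 and 3, at 2.36 and 2.61. Npy and Icos were each detected on 1 of the 3 normal diet arrays, so their normal diet levels are mostly not above background and no size is given for either. With normexp and an offset of 50 the differences were 1.15 for Cd68, 1.16 for Clec7a and 0.48 for Gdf5. The skeletal muscle markers Mylk2, Myom1 and Tmod4, 3 of 7, were lower on the high-fat diet, with differences of -1.27, -1.04 and -1.13 over all arrays and -0.69, -0.96 and -0.76 within slide 2, and their r to Frzb lay between -0.76 and -0.71. Whether any of these tissues contributed to the Frzb signal was not tested.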

How the data were processed

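Aortas of 6 mice were each hybridised to 1 single-colour Agilent mouse lncRNA array. The authors deposited the background-subtracted intensity and quality flags of each spot from Agilent Feature Extraction 10.7.1.1, and a table of log2 values that their methods describe as quantile normalized in GeneSpring. Groups and replicate numbers came from the sample labels. Here, control spots and outlier spots were left out, spots of a probe were averaged, a floor of 1 was set (reached by 0 probes), and log2 intensities were quantile normalized. Own and deposited log2 values correlated at r = 0.9988 or higher on each array. The filter kept the 64467 of 91188 probes that were detected on every array of one diet or the other. Differences, high-fat minus normal diet, were fitted with limma 3.58.1 in R 4.3.3, tested on simulated data. Python 3.11.15 was used for the rest.

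In the scanner files used here the gene name column repeats the probe name, and no probe annotation was used, so probes were named only through the probe and symbol columns of the study's lists of differential transcripts. The fold changes and p-values in those lists were not used. The genes named are Frzb, all nameable genes of a Wnt list and a cell marker list, and the 5 mRNAs and 3 lncRNAs with the highest r to Frzb. The gene and the lists were chosen with earlier results of these data known. The small number of arrays limits the precision. Only the first part of the probe sequence is printed. Alternatives were 75th percentile scaling, normexp, the deposited log2 values, no scaling, other filters, the methods' t-test, slide or replicate number as a block, and leaving out each array.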

Additional observations from a re-analysis of the deposited data

How the results depend on the processing

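The Frzb and Wnt8a differences stayed positive and that of Six3 negative in each setting tried. The Frzb difference of 1.61 became 0.84 with normexp and an offset of 50 and 2.26 with the slide as a block. Its value within slide 2 became 1.13 with normexp. Leaving out each array gave 1.29 to 1.86 for Frzb. Within slide 2, leaving out each high-fat diet array gave 2.05 to 2.49, and normal diet replicate 2, the one normal diet array there, cannot be left out. Normexp with an offset of 50 gave 0.38 for Wnt8a and -0.24 for Six3, and normexp with no offset gave -0.74 for Six3. The slide block gave 0.64 for Wnt8a. Leaving out each array gave 0.87 to 1.30 for Wnt8a and -1.21 to -0.90 for Six3. For Dkk2, not above background on any normal diet array, the fitted differences are not measurements of its change and say nothing of stability. They were 2.29 as fitted, 0.26 and 1.14 with normexp with and without the offset, and 2.05 to 2.76 with each array left out. The 1.89-fold value given above for Dkk2 is not a lower limit. Normexp with no offset and values with no scaling were alternatives chosen after seeing the data.

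Over all kept probes, 1909 met both criteria (1374 higher, 535 lower). The count was 319 with normexp and an offset of 50, 1034 with normexp and no offset, 3521 with no scaling between arrays, which moved the median difference to 0.23 (3313 higher, 208 lower), 986 among probes detected on all 6 arrays (525 higher, 461 lower), 688 with the methods' t-test (359 higher, 329 lower) and 6099 at 1.5-fold. It ran from 1137 without normal diet replicate 1 to 5877 without normal diet replicate 2, which leaves the diets on separate slides.

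Same-numbered arrays did not deviate together (r = -0.26, -0.20 and -0.03). Slide enters these deviations, since normal diet replicate 2 was on another slide than the other normal diet arrays. Whether replicate numbers pair the mice therefore cannot be told from them. With the replicate number as a block, Frzb differed by 1.61 (SE 0.40) and 2163 probes met both criteria. The median r of the 5 mRNAs most like Frzb was 0.986. It was 0.970 with normexp and an offset of 50, 0.967 with normexp and no offset, 0.939 with diet means removed and 1.0 as Spearman's rho. The low signal of Frzb over background on the normal diet arrays limits how well its fold is known.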
